A study of Mus musculus with 4 samples.

Results

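The comparison described here set hematopoietic stem cells (HSC) against common lymphoid progenitors (CLP) of mouse bone marrow, across both genotypes of a GRK6 knockout study. A gene counted as separated when its values in both HSC libraries lay above its values in both CLP libraries, or the reverse, by at least 1 unit of log2(FPKM + 1), where FPKM is the number of sequenced fragments scaled by transcript length and by the mapped fragments of the library. Of 12597 genes with a row of their own in at least 1 of the 4 libraries, 913 were separated (7.25%). HSC lay above CLP in 484 of them (3.84% of all genes) and CLP lay above HSC in 429 (3.41%).

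Each population was sampled from WT mice and from GRK6-/- littermates, giving 4 groups of 1 library each, all from C57BL/6 bone marrow. The HSC gate was Lin-c-kit+sca-1+ with no further stem cell marker, and the CLP gate added Il-7Ra+ to the same markers, so the HSC gate was not set to leave out Il-7Ra+ cells. For its flow cytometry the paper gives a CLP gate that also left out FcγRII/III+ cells, and a Lin-Sca-1+ stem cell gate with high cKit. Whether the sequenced cells were sorted with those gates is not stated in the paper. For each library 13 to 15 sorted cells from 3 to 4 mice were used, each transferred into lysis buffer on its own, and cDNA primed on poly(A) RNA was amplified by PCR. The mice of the study were 8 to 12 weeks old unless stated otherwise, and the knockout removes exons within Grk6 in the whole animal. Each population therefore had 1 WT and 1 GRK6-/- library, and the spread within a population holds genotype, sampling of a few cells and amplification together, which cannot be told apart.

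HSC sit at the top of blood formation and keep both self-renewal and the capacity to form every blood lineage. CLP are descendants with lymphoid potential: they depend on the receptors for IL-7 and FLT3 ligand, and as they commit to the B lineage they switch on E2A, EBF1 and then the genes of the pre-B cell receptor and of V(D)J recombination. Stem cell surface proteins and regulators are known to fade along this path.

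The deposited tables hold FPKM and no counts. From the steps between low values, an estimated 2710000 to 4430000 fragments stood behind each library, with 74.8% to 82.5% of the values used lying near a step. The paper states a larger number of reads for each lineage, and the difference was not tested. Each library listed 10056 to 11060 rows. Grk6 was 42.7 and 89.4 FPKM in the WT and GRK6-/- HSC libraries and 26.9 and 57.6 in the CLP libraries of the same genotypes. Its gene-level value was not lower in the libraries labelled GRK6-/-, and since exons outside the deletion enter it, it does not check those labels. Genes of the granulocyte list were abundant in all 4 libraries (summed level 12357 to 19293 FPKM in HSC and 8612 to 10409 in CLP). The GRK6-/- CLP library stood apart, with a summed erythroid level of 18351 FPKM against 203 to 1865 in the others, and a summed antigen presenting level of 2063 against 54.7 to 212. A gene with no row in a library was counted as 0, but no row is not proof of no RNA. Psmb5, a proteasome subunit that every cell uses, met the rule with 144 and 120 FPKM in CLP and no row of its own in HSC, where it was listed under a joint name with Mir686 at 131 and 215 FPKM. Such joint names touched 25 of the 913 genes, 15 with HSC above and 10 with CLP above, and the genes described below are not among them unless that is said.

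The 4 genes taken as markers of the populations were Il7r, Rag1, Dntt and Ly6a. Il7r, the IL-7 receptor chain used in the CLP gate, had no row in WT HSC and 1.08 FPKM in GRK6-/- HSC, against 120 and 75.1 in the CLP libraries, and since the gate selected on it this is no finding. Rag1, which cuts DNA in V(D)J recombination, had no row in either HSC library and was 23.0 and 2.47 FPKM in WT and GRK6-/- CLP. Dntt, the terminal transferase that adds bases at V(D)J junctions, was 114 and 92.3 FPKM in WT and GRK6-/- HSC and 931 and 562 in the CLP libraries. Dntt thus stood at about 100 FPKM in the cells labelled HSC and still separated, with the lowest CLP value 4.94 times the highest HSC value. Ly6a, which encodes Sca-1 and was part of both gates, had no value of its own: its locus at chr15:74810242-75262259 (mm9) carried a joint row of 5 names in WT HSC and the row 9030619P08Rik in the other libraries. Apart from Il7r, whose side the gate fixed, the markers that could be read were Rag1 and Dntt. Both stood on the side of their label, and Rag1 was lost from the set with a pseudocount of 5.

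**Figure D1:**
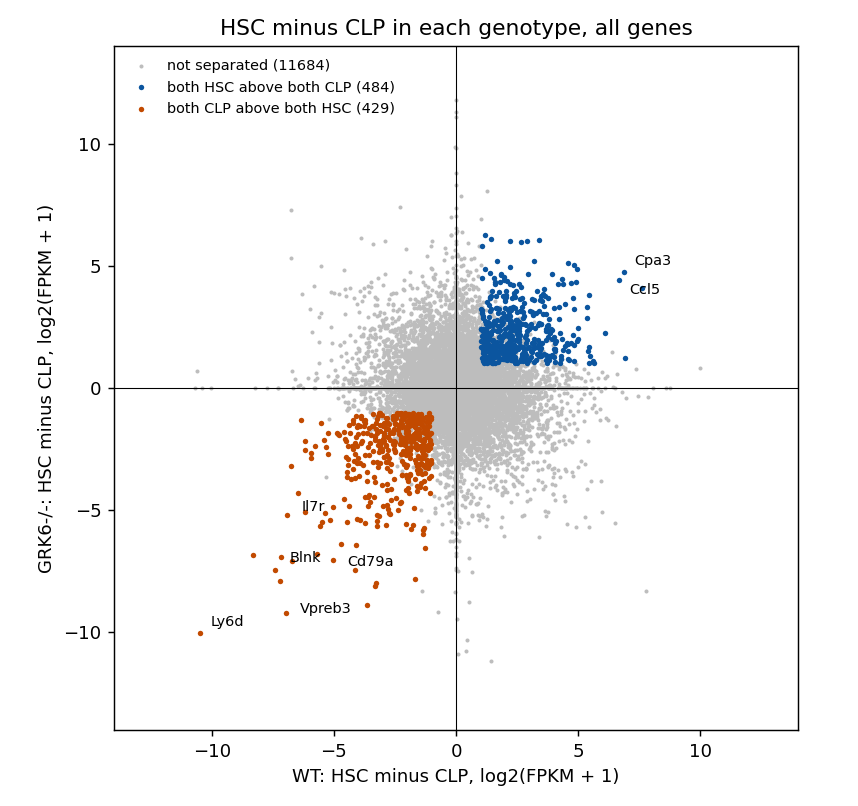
Each point is 1 of 12597 genes, with HSC minus CLP in the WT libraries on the x axis and in the GRK6-/- libraries on the y axis, both in units of log2(FPKM + 1). The 484 genes with both HSC values above both CLP values (blue) and the 429 with the reverse (orange) lie at least 1 unit from both axes, and Ly6d is the farthest, at -10.49 and -10.04.

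The separations were mostly modest. The median gap between the populations was 1.47 log2 units for the HSC-high genes and 1.52 for the CLP-high genes, 120 and 124 genes had a gap of at least 2, and 10 and 23 had a gap of at least 4. The largest gap was 4.86 on the HSC side and 10.04 on the CLP side. Rows in all 4 libraries were found for 253 HSC-high and 260 CLP-high genes, while 117 HSC-high genes had no row in either CLP library and 83 CLP-high genes had none in either HSC library. In its higher population the lower of both values was under 5 FPKM for 188 HSC-high and 102 CLP-high genes, and at least 50 FPKM for 46 and 42. At the edge of the rule stood Vapb (a gap of 1.005) and Prr3 (1.006) inside and Mt1 (0.9998) outside for HSC, and Sesn3 (1.003) inside and Mcm2 (0.99997) outside for CLP.

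Each genotype on its own gave a wider set. In the WT libraries alone HSC lay at least 1 unit above CLP in 2824 genes (22.4%) and CLP above HSC in 2479 (19.7%), and in the GRK6-/- libraries alone the counts were 2786 (22.1%) and 2663 (21.1%). Without the GRK6-/- CLP library, 1520 genes met the rule with HSC above and 1485 with CLP above, a rule that 3 libraries meet more easily than 4. Applied to genotype in place of population, the same rule on the same libraries separated 668 genes (5.3%), 394 with GRK6-/- above (3.13%) and 274 with WT above (2.18%), against 913 for population. Without a minimum gap, HSC lay above CLP with no overlap in 2208 genes (17.5%) and CLP above HSC in 1781 (14.1%).

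Among the lists chosen by hand, B lineage and lymphoid specification held the most CLP-high genes. Programs were not ranked over all CLP-high genes. Of 29 lymphoid specification genes with a row, 6 lay above in CLP (20.7%, against 3.41% of all genes) and 1 lay above in HSC. Ly6d, a surface protein that marks B-biased CLP, had no row in either HSC library and was 1438 and 1051 FPKM in WT and GRK6-/- CLP, the largest separation of any gene. Flt3, the receptor for FLT3 ligand, was 54.5 and 23.8 FPKM in WT and GRK6-/- HSC against 124 and 219 in CLP. The groups for Flt3 did not overlap, but the lowest CLP value was only 2.27 times the highest HSC value. Irf8, a transcription factor of lymphoid and dendritic cell fates, was 1.12 and 41.2 FPKM in HSC, a wide spread, and 152 and 190 in CLP. Ly6d, Flt3 and Irf8 joined Il7r, Rag1 and Dntt as the 6 members, of which Il7r was selected by the gate.

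Several lymphoid regulators did not separate. Rag2, the partner of Rag1, was 94.5 FPKM in WT CLP without a row in the GRK6-/- library, so the pair of CLP libraries disagreed on it. Ikzf1, which encodes Ikaros, was 22.8 and 40.2 FPKM in HSC and 69.0 and 52.9 in CLP, a gap of 0.39 log2 units. Il2rg, the common gamma chain that pairs with the IL-7 receptor, was 20.0 and 26.5 FPKM in HSC and 47.4 and 104 in CLP, a gap of 0.81. Both lay higher in CLP without meeting the rule. Nfil3, a transcription factor needed for innate lymphoid cells, went the other way, with 31.0 and 8.46 FPKM in WT and GRK6-/- HSC, 0.119 in WT CLP and no row in the other CLP library.

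B lineage genes gave the clearest block. Of 19 with a row, 10 lay above in CLP (52.6%, against 3.41% of all genes) and 0 lay above in HSC (3.84% of all genes), with a median HSC minus CLP difference of -4.34 log2 units over the 19. Another 5 of the 24 listed had no row in any library. Rows were found for 19 and 18 in WT and GRK6-/- CLP but for 6 and 8 in HSC, so genes entered this count largely through CLP. The list summed to 479 and 436 FPKM in WT and GRK6-/- HSC and to 1041 and 2643 in CLP. None of the 10 had rows in all 4 libraries, so each had no row in at least 1 HSC library, and no fold is given. In RNA measured over many cells at once, more cells of a type and more RNA per cell cannot be told apart.

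The transcription factors of the block were Ebf1, Pou2af1 and Spib. Ebf1, which sets B cell identity, had no row in HSC and was 25.0 and 82.0 FPKM in WT and GRK6-/- CLP. Pou2af1, a coactivator that works with octamer-binding factors, had no row in HSC and was 8.50 and 48.4 FPKM in CLP. Spib, an ETS factor of B and dendritic cells, had no row in HSC and was 15.8 and 40.2 FPKM in CLP. All 3 were higher in the GRK6-/- CLP library than in WT CLP. Pax5, the factor that fixes B commitment, had no row in any library.

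The signalling members were Cd79a, Blnk and Blk. Cd79a, a signalling chain of the pre-B and B cell receptor, had no row in WT HSC, was 0.216 FPKM in GRK6-/- HSC and was 32.1 and 160 in CLP. Blnk, the adaptor downstream of that receptor, had no row in HSC and was 167 and 171 FPKM in CLP, nearly the same in both genotypes. Blk, a SRC family kinase of B cells, had no row in HSC and was 70.5 and 32.4 FPKM in CLP. In contrast, Cd79b, the partner chain of Cd79a, was 41.9 and 34.8 FPKM in HSC and 39.1 and 207 in CLP, so the populations overlapped on it. Btk, another kinase of the pathway, lay at 4.88 and 16.7 FPKM in HSC and 3.67 and 1.01 in CLP.

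The surrogate light chain, which stands in for the light chain in the pre-B cell receptor, is made by Vpreb1 or Vpreb2 with Igll1, and Vpreb3 is a related chain. Vpreb3 had no row in HSC and was 124 and 594 FPKM in WT and GRK6-/- CLP. Igll1 had no row in HSC and was 2.20 and 226 FPKM in CLP, so almost all of its signal came from the GRK6-/- CLP library. Vpreb1 was 0.423 FPKM in GRK6-/- HSC with no row in WT HSC, and 16.4 and 246 in CLP. Vpreb2 had no row in HSC and was 70.6 and 4.75 FPKM in CLP, the opposite order of the CLP libraries from Vpreb1. The genes are near copies of each other, so how reads were shared between Vpreb1 and Vpreb2 is uncertain. Igll1 and Vpreb2 were lost from the set with a pseudocount of 5. Without the GRK6-/- CLP library, 13 B lineage genes met the rule with CLP above. That count cannot fall below the 10 found with every library, since fewer libraries meet the rule more easily.

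**Figure D2:**
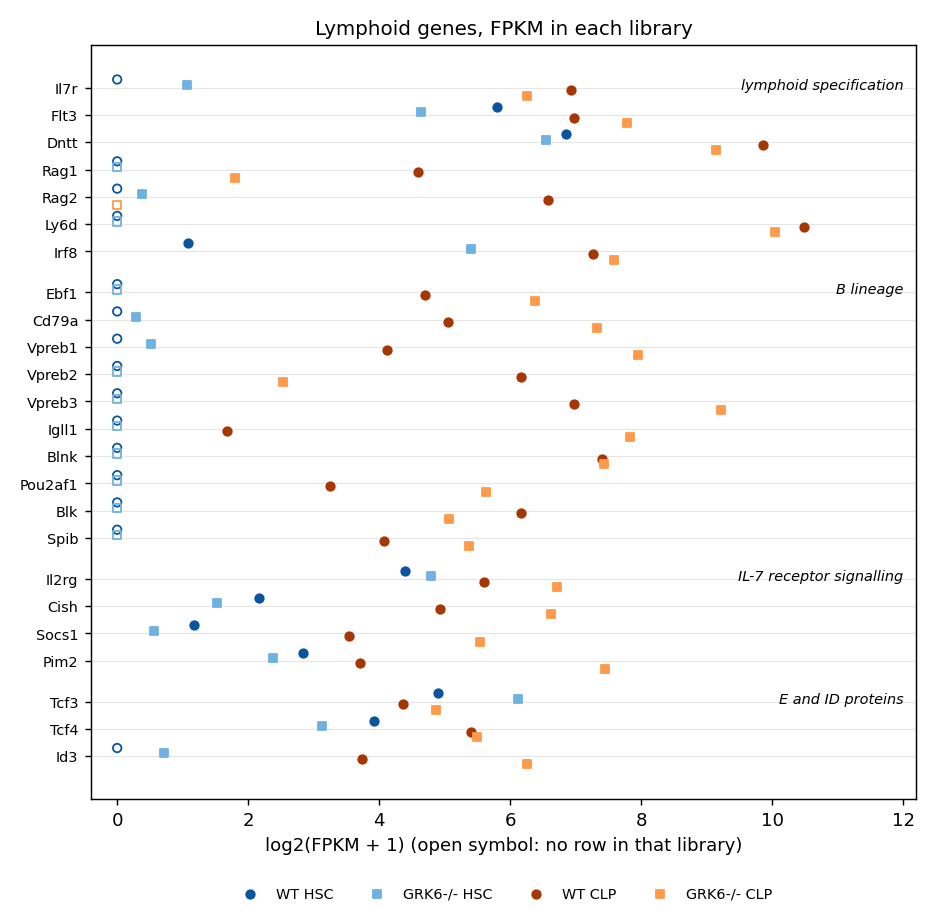
Values of lymphoid genes in log2(FPKM + 1) on the x axis, 1 line per gene and 1 symbol per library (blue shades HSC, brown and orange CLP, circles WT, squares GRK6-/-, open where a library had no row). Both CLP symbols lie to the right of both HSC symbols for all genes shown except Rag2 and Tcf3, and Igll1 shows how far the CLP libraries can lie apart.

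The promoters of these co-separating genes are shown because E proteins and octamer-binding factors are known to act on B lineage genes. They come from RefSeq promoters of build GRCm38.p6, while the coordinates of the deposited rows are mm9. Of the 10 B lineage genes, 9 had a promoter there. The 250 bases before each start were searched on both strands for the E-box CAGGTG, the octamer ATGCAAAT and the GATA motif AGATAA, which do not overlap one another. Each window below holds 100 bases, 5′ to 3′ on the gene's strand, and the capitals mark the motif on either strand. The windows were Vpreb1 chr16:16869291-16869390 (minus strand), Vpreb2 chr16:17980315-17980414 (plus), Igll1 chr16:16863986-16864085 (minus), Cd79a chr7:24897296-24897395 (plus), Blnk chr19:40994313-40994412 (minus) and Vpreb3 chr10:75948200-75948299 (plus).
Vpreb1: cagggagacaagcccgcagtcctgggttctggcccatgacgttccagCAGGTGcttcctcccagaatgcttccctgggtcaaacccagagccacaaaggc
Vpreb2: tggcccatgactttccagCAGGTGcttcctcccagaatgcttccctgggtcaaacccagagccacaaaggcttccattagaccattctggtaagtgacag
Igll1: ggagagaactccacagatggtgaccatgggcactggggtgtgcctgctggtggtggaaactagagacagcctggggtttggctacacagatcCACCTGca
Cd79a: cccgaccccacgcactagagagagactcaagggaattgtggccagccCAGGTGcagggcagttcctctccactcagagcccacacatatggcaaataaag
Blnk: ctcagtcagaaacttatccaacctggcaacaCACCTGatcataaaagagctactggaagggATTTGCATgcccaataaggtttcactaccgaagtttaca
Vpreb3: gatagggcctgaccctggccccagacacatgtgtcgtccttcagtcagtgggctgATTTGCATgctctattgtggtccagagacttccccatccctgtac

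The E-box stood in 5 of the 9 promoters (Blnk, Cd79a, Igll1, Vpreb1 and Vpreb2), and 19.4% of the 27025 promoters in the table held it. The octamer stood in 2 of the 9 (Blnk and Vpreb3), against 1.81% of all promoters. Vpreb1 and Vpreb2 are not independent here, since 153 of 156 aligned bases (98.1%) were identical. Over the whole set of CLP-high genes with a promoter, the E-box share was 20.1% of 303 and the octamer share was 1.65%, close to those of all promoters. Some separated genes are neighbours: Igll1 and Vpreb1 lie 4.4 kb apart on chromosome 16, and Blnk and Dntt lie 34.7 kb apart on chromosome 19. No other listed gene lies between either pair (mm9). These pairs were picked by hand, and neighbours were not counted over all separated genes.

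Genes downstream of cytokine receptors were also in the CLP set. This group, like the next 3 groups named as such, was chosen after its values were seen, so its counts are a description only. Of 13 genes of IL-7 receptor and STAT5 signalling with a row, 3 lay above in CLP (23.1%, against 3.41% of all genes) and 0 in HSC (3.84% of all genes): Il7r itself, on which the gate selected, Cish and Socs1. Cish, a STAT5-induced feedback inhibitor, was 3.48 and 1.87 FPKM in WT and GRK6-/- HSC and 29.4 and 98.0 in CLP. Socs1, an inhibitor of JAK kinases, was 1.26 and 0.477 FPKM in HSC and 10.6 and 45.5 in CLP. Rows were present in all 4 libraries for both, and the lowest CLP value was 8.45 times the highest HSC value for Cish and 8.40 times for Socs1. The transducers themselves did not separate: Stat5a was 13.0 and 33.6 FPKM in HSC and 40.9 and 4.07 in CLP, and Jak1 was 38.7 and 51.8 in HSC and 38.9 and 25.4 in CLP.

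Among 6 E proteins and ID proteins, also grouped after their values were seen, Tcf4 and Id3 lay above in CLP (33.3%, against 3.41% of all genes). Tcf4, which encodes the E protein E2-2, was 14.1 and 7.71 FPKM in HSC and 41.2 and 44.0 in CLP. Id3, an inhibitor of E proteins, had no row in WT HSC, was 0.642 FPKM in GRK6-/- HSC and was 12.3 and 75.2 in CLP. Tcf3, which encodes E2A, the E protein of early B cells, was 28.8 and 68.2 FPKM in HSC and 19.5 and 28.3 in CLP, with the HSC side slightly higher. The separating members thus held both an E protein and an inhibitor of E proteins.

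Other large CLP separations had no lymphoid list. Hist1h2ae, a histone H2A gene, had no row in HSC and was 148 and 237 FPKM in WT and GRK6-/- CLP. Cox6a2, the muscle form of a cytochrome c oxidase subunit, was 1.56 FPKM in GRK6-/- HSC with no row in WT HSC, and 314 and 288 in CLP. Slc35b2, a Golgi transporter of sulfate donor, had no row in HSC and was 51.1 and 110 FPKM in CLP. St6gal1, a sialyltransferase abundant in B cells, had no row in HSC and was 19.6 and 27.1 FPKM in CLP. The remaining members of the 15 largest gaps were Trim12a, Rn4.5s, 2010001M09Rik and Gm10684, at 21.3 to 49.3 FPKM in CLP with no row in HSC. Cox6a2 was the only gene of these 8 with any HSC row.

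In all, 42 CLP-high genes stood at 50 FPKM or more in both CLP libraries. Of these, Numa1, Mycbp2, Scrib, Fos and Hes6 are given as examples chosen after their values were seen, because rows were present in all 4 libraries. Numa1, a spindle pole protein, was 22.3 and 4.11 FPKM in HSC and 169 and 250 in CLP. Scrib, a cell polarity protein, was 16.5 and 12.9 FPKM in HSC and 97.3 and 83.6 in CLP, close within each population. Mycbp2, a ubiquitin ligase, was 8.32 and 3.90 FPKM in HSC and 63.1 and 150 in CLP. Fos, an immediate early gene, was 46.2 and 73.6 FPKM in HSC and 273 and 165 in CLP, and Hes6, a helix-loop-helix regulator, was 22.2 and 36.7 in HSC and 96.8 and 81.8 in CLP.

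Some markers of antigen presenting and plasmacytoid dendritic cells also lay above in CLP. Of 8 with a row, 3 lay above in CLP (37.5%, against 3.41% of all genes) and 0 in HSC (3.84% of all genes): H2-Eb1, Siglech and Flt3, which the lymphoid list also holds. H2-Eb1, an MHC class II chain, had no row in HSC and was 8.85 and 275 FPKM in WT and GRK6-/- CLP. Siglech, a lectin of plasmacytoid dendritic cells, was 0.148 and 0.111 FPKM in HSC and 10.0 and 278 in CLP. Both were far higher in GRK6-/- CLP, the library whose summed list level was 2063 FPKM against 212 in WT CLP and 54.7 to 155 in HSC. Of the defining genes, Cd74 was 6.92 and 0.475 FPKM in HSC and 7.26 and 483 in CLP, and Ciita and Batf3 had no row anywhere. The part of such cells in the CLP values was not tested. Leaving out the GRK6-/- CLP library cannot take a gene out of the set, so H2-Eb1 and Siglech still met the rule. This says nothing of stability.

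The HSC side held fewer genes of known stem cell function. Of 17 stem cell surface genes with a row, 2 lay above in HSC (11.8%, against 3.84% of all genes) and 0 in CLP. Eng, an accessory receptor for TGF-beta ligands on long-term HSC, was 43.4 and 15.6 FPKM in WT and GRK6-/- HSC and 2.0 and 5.66 in CLP. Thy1, found at low level on HSC and also on T cells, was 29.2 and 9.86 FPKM in HSC and 1.67 and 3.28 in CLP. For both, WT HSC was the highest library and the lowest HSC value was 2.76 and 3.01 times the highest CLP value. Eng and Thy1 were lost from the set with a pseudocount of 5.

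Other stem cell surface genes were weak or shared. Slamf1, the CD150 marker of long-term HSC, was 8.91 and 0.689 FPKM in HSC and 0.172 and 0.136 in CLP, with a gap of 0.53 log2 units. Tek, the angiopoietin receptor, was 2.72 and 0.717 FPKM in HSC, 0.0482 in WT CLP and unlisted in the other CLP library, with a gap of 0.71. Both lay higher in HSC with values too low in GRK6-/- HSC to meet the rule. Kit and Cd34, found on both gates or on progenitors, were 26.2 to 81.8 FPKM and 151 to 338 FPKM over the 4 libraries, with the populations overlapping on both. Procr, the EPCR marker of HSC, was highest in GRK6-/- HSC at 7.85 FPKM and had no row in WT HSC.

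Of 29 transcriptional regulators of stem cells with a row, 2 lay above in HSC (6.90%, against 3.84% of all genes) and 1 in CLP (3.45%, against 3.41%). Hmga2, a chromatin protein tied to fetal and self-renewing HSC, was 2.60 and 6.96 FPKM in WT and GRK6-/- HSC and 0.216 and 0.170 in CLP. Msi2, an RNA-binding protein of stem cells, was 13.7 and 4.38 FPKM in HSC with no row in CLP, but its name sits in a joint row and its locus carries another symbol in the tables, so its separation is doubtful. Hmga2 and Msi2 were both lost with a pseudocount of 5. Egr1, an immediate early factor tied to HSC quiescence, lay above in CLP, with 29.7 and 43.9 FPKM in HSC and 102 and 125 in CLP.

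The other regulators showed no common direction. Hlf, a factor most specific to HSC, was 22.3 and 12.7 FPKM in HSC and 24.1 and 75.0 in CLP. Meis1 was 25.3 and 20.8 FPKM in HSC and 32.8 and 31.7 in CLP, and Runx1 was 10.8 and 9.35 in HSC and 25.3 and 18.2 in CLP. These 3 lay slightly higher in CLP, by gaps of 0.11, 0.32 and 0.71 log2 units. Gata2 and Tal1, which act together in stem and early progenitor cells, lay slightly higher in HSC: Gata2 was 62.8 and 35.1 FPKM in HSC and 27.6 and 8.89 in CLP, and Tal1 was 33.2 and 19.2 in HSC and 10.5 and 15.0 in CLP, each with a gap of 0.34. Over the 29 regulators, the mean was higher in HSC for 17 and in CLP for 12.

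**Figure D3:**
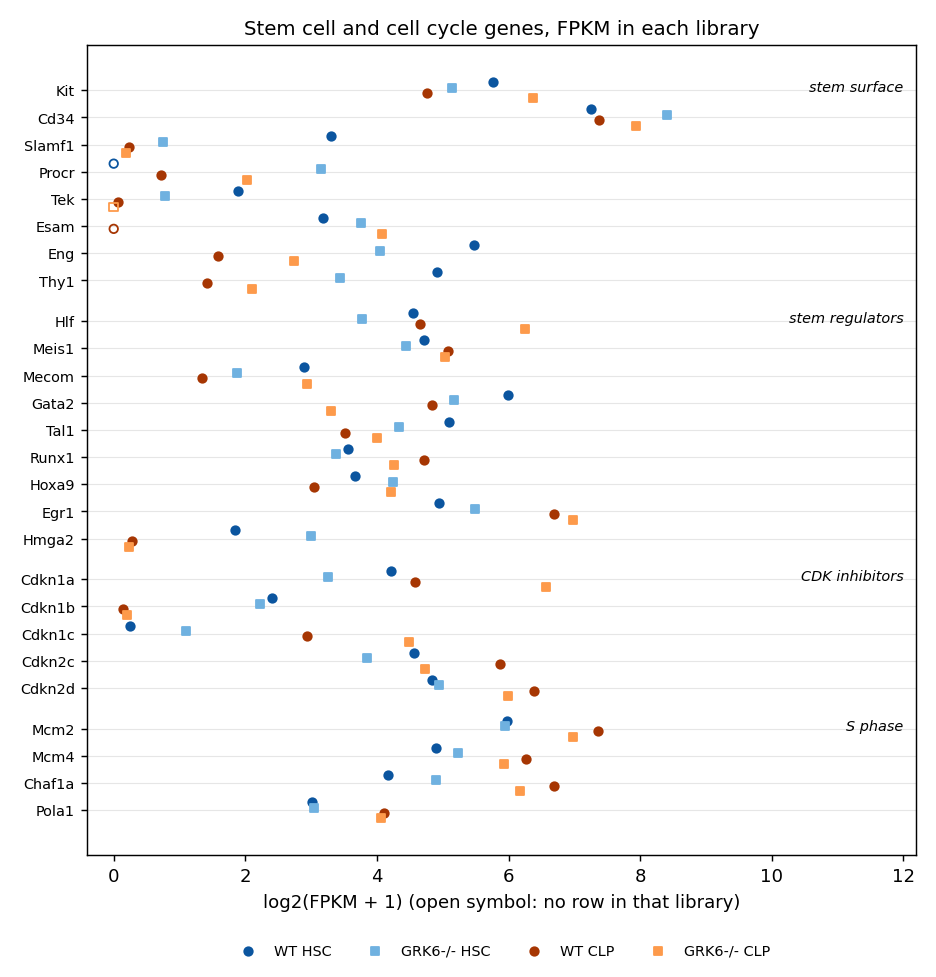
Stem cell surface genes, stem cell regulators, CDK inhibitors and S phase genes in log2(FPKM + 1) on the x axis, with 1 symbol per library as labelled (open where there was no row). Only Eng, Thy1, Hmga2 and Cdkn1b show both HSC symbols at least 1 unit to the right of both CLP symbols, while Hlf, Meis1 and Runx1 lie slightly to the left in HSC.

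Several of the largest HSC separations were in genes known from immune and myeloid cells. The 15 largest are taken among genes outside joint rows and with 1 symbol at the locus. Cpa3, carboxypeptidase A3 of mast cells and of their progenitors, was 116 and 47.8 FPKM in WT and GRK6-/- HSC, had no row in WT CLP and was 0.801 in the other CLP library. Ccl5, a chemokine of T, NK and megakaryocytic cells, was 99.7 and 20.7 FPKM in HSC with no row in CLP. Clec4d, a C-type lectin of myeloid cells, was 34.9 and 19.5 FPKM in HSC, 0.187 in WT CLP and unlisted in the other CLP library. Prg4, which encodes the lubricant proteoglycan 4, was 42.7 and 13.1 FPKM in HSC with no row in CLP. In all 4 genes the WT HSC library was the highest.

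The promoter window of Cpa3, chr3:20242182-20242281 (GRCm38.p6, minus strand), is shown for the GATA motif 46 bases before its start, in capitals, since GATA2 is known to act in mast cell progenitors.
Cpa3: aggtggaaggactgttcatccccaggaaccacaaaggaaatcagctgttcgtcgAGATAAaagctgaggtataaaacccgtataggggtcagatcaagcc
The GATA motif stood in 8.43% of the 356 HSC-high promoters, 7.92% of the 303 CLP-high promoters and 11.4% of all promoters, so it was not more common in either set.

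Several HSC-high genes were steadier between the HSC libraries. Tmem149, which encodes a receptor-like protein found on T cells, was 44.0 and 49.6 FPKM in HSC and 1.99 and 1.01 in CLP, the lowest HSC value 22.1 times the highest CLP value. Inf2, an actin-regulating formin, was 20.6 and 20.3 FPKM in HSC and 0.780 and 1.08 in CLP, 18.8 times. Rbm20, a splicing regulator best known from muscle, was 25.1 and 18.6 FPKM in HSC with no row in CLP. Of the 15 largest gaps, Kazald1, Scgb3a1, Snhg9, 2810408I11Rik, 2700062C07Rik and LOC106740 were 8.85 to 26.8 FPKM in HSC and had no row in CLP. The HSC libraries lay far apart on 5033411D12Rik, at 195 and 15.9 FPKM with no row in CLP.

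At 50 FPKM or more in both HSC libraries stood 46 HSC-high genes. The examples Atp13a2, Zfp672, Taf1c and Tacc3 were chosen after their values were seen, since all 4 libraries had rows. Zfp672, a zinc finger protein, was 81.9 and 91.9 FPKM in HSC and 8.60 and 9.61 in CLP. Taf1c, a subunit of the RNA polymerase I factor SL1, was 96.0 and 98.1 FPKM in HSC and 13.9 and 6.75 in CLP, and Atp13a2, a lysosomal transporter, was 62.0 and 59.7 in HSC and 5.60 and 6.24 in CLP. Tacc3, a spindle protein, was 164 and 142 FPKM in HSC and 26.3 and 21.2 in CLP. The HSC values lay close together in each of these 4 genes, and so did the CLP values except for Taf1c.

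**Figure D4:**
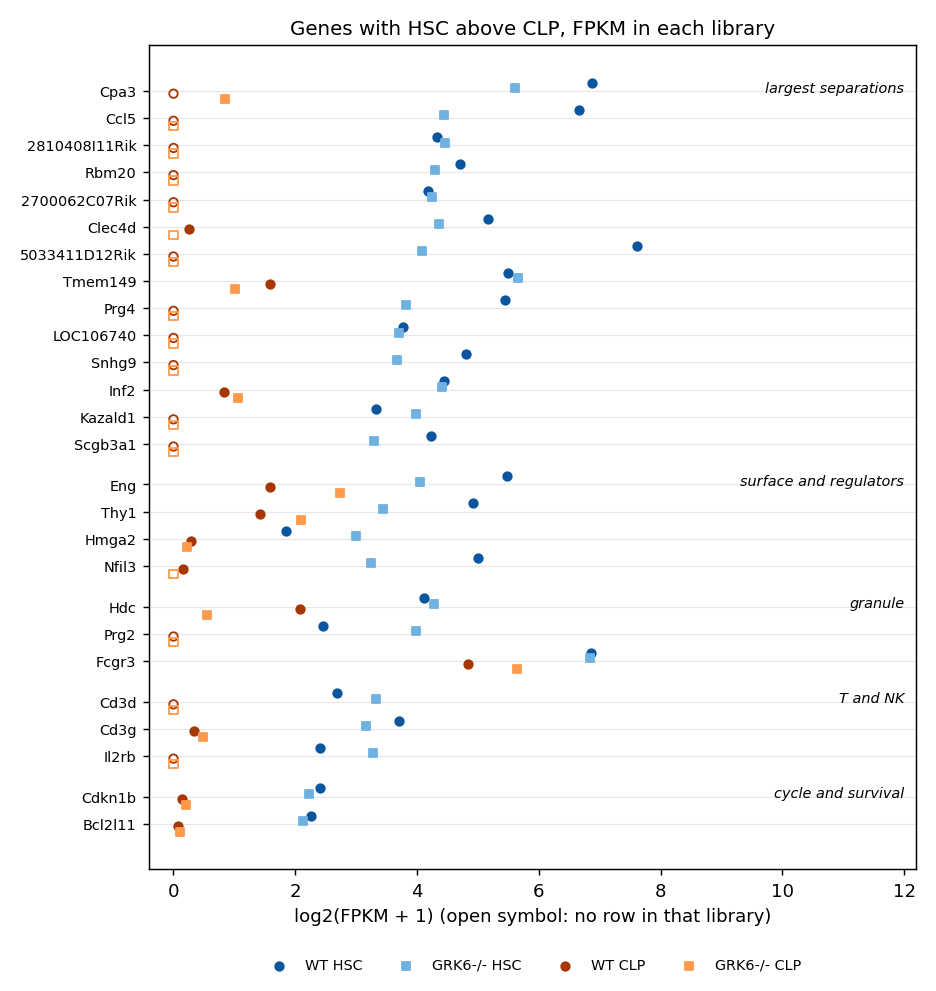
HSC-high genes in log2(FPKM + 1) on the x axis, 1 symbol per library (blue shades HSC, brown and orange CLP, circles WT, squares GRK6-/-, open where a library had no row). The group at the top shows 14 of the 15 largest separations outside joint and renamed rows, of which both CLP libraries had no row for 10, and only Tmem149 and Inf2 among the 14 have rows in all 4 libraries.

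A pair of mast cell and basophil markers lay above in HSC. Of 4 with a row, Cpa3 and Hdc did so (50%, against 3.84% of all genes), Mcpt8 and Gata2 did not separate, and 7 of the 11 listed, among them Fcer1a, Ms4a2 and Tpsab1, had no row in any library. Hdc, which makes histamine, was 16.3 and 18.3 FPKM in WT and GRK6-/- HSC and 3.24 and 0.465 in CLP. The summed level of the list was 176 to 214 FPKM in HSC and 10.2 to 53.2 in CLP. In a wider granule group formed after the values were seen, 3 of 6 lay above in HSC (50%, against 3.84% of all genes), Cpa3 and Hdc among them. The other was Prg2, the eosinophil major basic protein, at 4.48 and 14.7 FPKM in HSC with no row in CLP. Its separation was lost with a pseudocount of 5. Mcpt8, a basophil protease, was at 19.1 and 74.9 FPKM in HSC and 22.4 in WT CLP, and it had no row in the other CLP library. Fcgr3, a low-affinity IgG receptor of myeloid progenitors, was the only member of 26 myeloid genes to separate (3.85%, against 3.84% of all genes). The paper's flow cytometry gate for CLP left out FcγRII/III+ cells, and Fcgr3 encodes FcγRIII. That gate may therefore have fixed the side of Fcgr3. Fcgr3 was at 115 and 113 FPKM in HSC and 27.6 and 48.9 in CLP. Mpo, the granule peroxidase, fell just short, at 3550 and 2038 FPKM in HSC and 1023 and 890 in CLP, a gap of 0.9945. The part of such cells in the HSC values was not tested.

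T and NK cell genes were split. Of 19 with a row, Cd3d, Cd3g and Il2rb lay above in HSC (15.8%, against 3.84% of all genes) and Cd247 and Lck in CLP (10.5%, against 3.41%), and 7 of the 26 listed had no row anywhere, Cd8a, Prf1 and Gzma among them. Cd3g, a chain of the T cell receptor complex, was 12.1 and 7.93 FPKM in HSC and 0.257 and 0.403 in CLP. Its neighbour Cd3d, 1.4 kb away on chromosome 9, was 5.42 and 9.04 FPKM in HSC with no row in CLP, while Cd3e was under 1 FPKM in both HSC libraries. Il2rb, a chain of the IL-2 and IL-15 receptors, was 4.31 and 8.74 FPKM in HSC with no row in CLP. Cd247, the zeta chain of the same T cell receptor complex, was 2.40 FPKM in WT HSC, unlisted in the other HSC library, and 11.7 and 10.9 in CLP. Lck, a SRC family kinase, was 13.7 and 11.6 FPKM in HSC and 29.2 and 29.3 in CLP. Il2rb was lost with a pseudocount of 5, and Lck with that pseudocount and under quantile normalization. The summed level of the list was 442 to 661 FPKM in HSC and 291 to 597 in CLP, and the part of T or NK cells was not tested.

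Other cell types gave at most 1 separated gene per list and direction. This was 5.88% of the megakaryocyte list for HSC, 5.88% of the erythroid list for CLP and 10% of the stromal list for each. Over all genes the shares were 3.84% for HSC and 3.41% for CLP, and in lists this short 1 gene makes such a share. Of 17 megakaryocyte genes, Gp5, a platelet glycoprotein, lay above in HSC at 6.05 and 1.72 FPKM with no row in CLP, and the list summed to 122 to 342 FPKM in HSC and 125 to 250 in CLP. Of 17 erythroid genes, Tfrc, the transferrin receptor of all dividing cells, lay above in CLP with 45.6 and 61.1 FPKM against 7.22 and 21.6 in HSC, and it was lost with a pseudocount of 5 and under quantile normalization. Hba-a2, an alpha globin, was 17.4 and 17219.5 FPKM in the CLP libraries, so the erythroid sum of that library rested on it. Of 10 stromal and endothelial genes, Pdgfrb lay above in HSC at 17.2 and 6.65 FPKM against 1.69 in WT CLP and no row in the other CLP library, and Fn1 lay above in CLP at 3.87 and 4.15 FPKM against 0.606 and 0.960. Pdgfrb, Fn1 and Gp5 were lost with a pseudocount of 5. The stromal list summed to 18.7 to 46.5 FPKM in HSC and 31.8 to 39.0 in CLP, and 5 of its 15 genes had no row anywhere. Of its members, Cxcl12, Col1a1, Col1a2 and Col3a1 reached at most 0.146, 0.218, 0.0497 and 0.0458 FPKM, Sparc 1.395, Pecam1 26.1 and Vcam1 26.8.

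Inhibitors of cyclin-dependent kinases (CDK) differed in direction. Of 13 genes of the CDK inhibitor and cyclin D list, 1 lay above in HSC (7.69%, against 3.84% of all genes) and 2 in CLP (15.4%, against 3.41%). Cdkn1b, which encodes p27, was 4.28 and 3.66 FPKM in WT and GRK6-/- HSC and 0.0970 and 0.153 in CLP, about 58 and 65 fragments against 2 in each CLP library. Cdkn1c, which encodes p57 and is known for HSC quiescence, lay above in CLP instead, at 6.69 and 21.5 FPKM against 0.191 and 1.15 in HSC. Cdkn2d, which encodes p19, was 82.7 and 62.4 FPKM in CLP and 27.7 and 29.8 in HSC. All 3 were lost with a pseudocount of 5, and Cdkn2d also under quantile normalization. Cdk4 was 374 to 452 FPKM in all 4 libraries, with no separation.

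Proliferation genes were counted in 2 lists. Of 30 genes of DNA replication and S phase, 2 lay above in CLP (6.67%, against 3.41% of all genes) and 0 in HSC (3.84% of all genes): Chaf1a, a chromatin assembly subunit at 16.9 and 28.7 FPKM in HSC and 102 and 71.2 in CLP, and Pola1, a DNA polymerase alpha subunit at 7.06 and 7.21 in HSC and 16.3 and 15.6 in CLP. Pola1 was lost with a pseudocount of 5 and under quantile normalization. Mcm2, a helicase subunit, was 62.3 and 60.8 FPKM in HSC and 163 and 126 in CLP. Its sister subunits Mcm4 and Mcm3 also lay higher in CLP with gaps of 0.70 and 0.29 log2 units, and Mcm5, Mcm6 and Mcm7 overlapped. Of 30 mitosis genes, 0 separated in either direction, and Mki67, the Ki-67 antigen, was 22.6 and 19.9 FPKM in HSC and 22.3 and 26.2 in CLP. The median difference over the list was 0.01 log2 units for S phase and 0.04 for mitosis.

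In a BCL2 family group formed after the values were seen, 1 of 16 lay above in HSC (6.25%, against 3.84% of all genes) and 0 in CLP. Bcl2l11, which encodes the death-promoting BIM, was 3.79 and 3.38 FPKM in HSC and 0.0469 and 0.0740 in CLP, about 56 and 66 fragments against 1 in each CLP library, and was lost with a pseudocount of 5. Bcl2, the survival factor downstream of IL-7, was 10.2 and 37.8 FPKM in HSC and 37.8 and 17.5 in CLP and did not separate.

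Gene groups from the annotation deposited with the tables were also counted. Of 215 translation genes, 9 lay above in HSC (4.19%) and 1 in CLP (0.465%), against 3.84% and 3.41% of all genes. The 9 were the mitochondrial ribosomal proteins Mrpl21, Mrpl22, Mrpl47, Mrps14 and Mrps18c, the mitochondrial tRNA synthetases Cars2 and Ears2, and Dhx29 and Pstk. The HSC share was close to that of all genes, and mitochondrial translation genes were not counted as a group. The CLP-high gene was Tars2, also a mitochondrial tRNA synthetase. Mrpl47 was 57.8 and 63.7 FPKM in HSC and 11.9 and 9.57 in CLP. Of 483 cell cycle genes, 15 lay above in HSC (3.11%) and 11 in CLP (2.28%). Of 255 cell adhesion genes, 8 lay above in HSC (3.14%) and 6 in CLP (2.35%), and of 114 DNA replication genes 4 separated each way (3.51%). Of 58 hemopoiesis genes, 3 separated each way (5.17%). The T cell differentiation group gave 4 of 32 above in CLP (12.5%), the B cell differentiation group 3 of 33 (9.09%) and V(D)J recombination 1 of 6 (16.7%), with 0 above in HSC in all 3, and Il7r, a gate gene, is among the T cell differentiation genes.

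**Figure D5:**
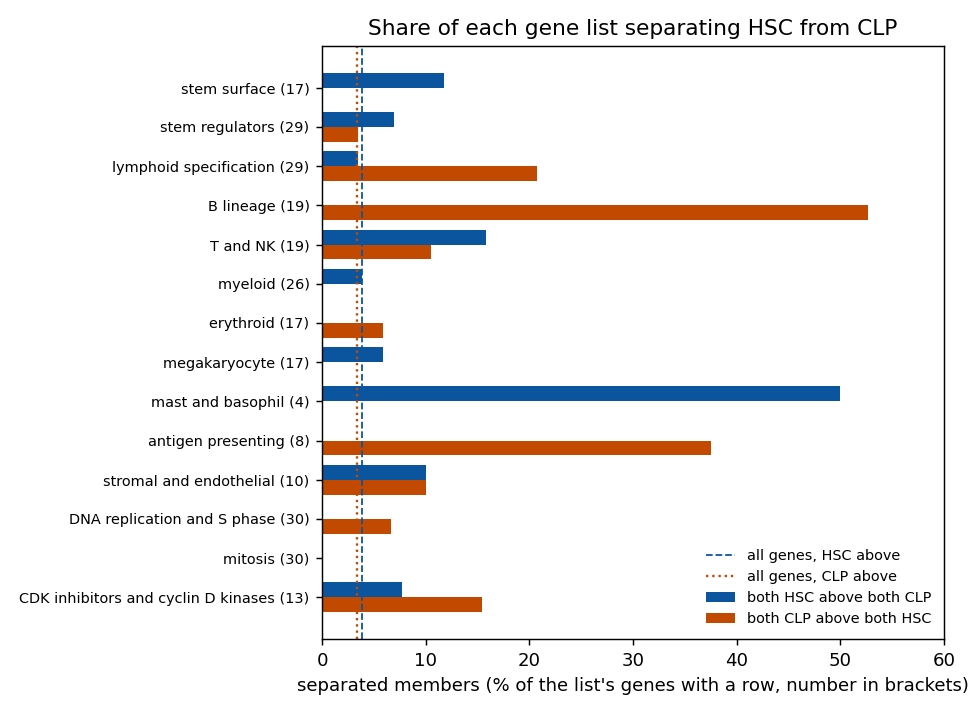
Share of the genes of each list, in percent of those with a row, with both HSC values above both CLP values (blue) or the reverse (orange), beside the shares of all 12597 genes (dashed line 3.84%, dotted line 3.41%). The longest bars are the 10 of 19 B lineage genes on the CLP side and the 2 of 4 mast and basophil genes on the HSC side.

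A test over all genes was run on 4 libraries. limma fitted to log2(FPKM + 1) with population and genotype as terms called 0 of 11397 genes (FPKM of at least 1 in at least 1 library, of which the separation rule took 4.25% on the HSC side and 3.76% on the CLP side) at an adjusted p under 0.05, and 584 (5.12%) had an unadjusted p under 0.05. The lowest adjusted p was 0.0999, for Ly6d, with a difference of -10.27 ± 0.91 log2 units (limma standard error, 4 libraries). That error drew mostly on a variance shared over all genes (6.1 prior degrees of freedom against 1 residual), not on Ly6d alone. Blnk, Vpreb3, Hist1h2ae, Cox6a2, Evi2a and Psmb5 followed in limma, each at an adjusted p of 0.193, and of these Evi2a and Psmb5 are named in joint rows, so their values are doubtful. When limma let the variance depend on the mean level, 95 genes (0.834%) passed, 59 with CLP higher and 36 with HSC higher, Ly6d, Vpreb3, Blnk, Dntt, Irf8, Cd79a and Cpa3 among them, and so was Psmb5. An unadjusted p under 0.05 was then found for 783 (6.87%). An exact permutation test of 2 against 2 libraries cannot give a two-sided p under 0.333 for a single gene. Across the 6824 genes at FPKM of at least 1 in all 4 libraries, the median HSC minus CLP difference was 0.01 log2 units, and the median absolute difference between libraries was 0.734 within HSC and 0.997 within CLP.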

How the data were processed

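The authors sequenced amplified cDNA and deposited 1 table of FPKM per gene for each library, aligned to mm9 with TopHat 1.4.0 per the submitters' processing notes. The version of the program that computed FPKM, its annotation and its filters are not given in the sources used here. The deposited FPKM hold no zeros (smallest 0.0025).

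Rows were summed by symbol, rows naming several genes were left out, a gene with no row counted as 0, and values were taken as log2(FPKM + 1). The pseudocount of 1 shrinks differences of low genes. Genes were named if they were Grk6, members of a list, or among the 15 largest gaps per direction with rows in both libraries of the higher population, outside joint rows and with 1 symbol at the locus; others are said to be chosen after their values were seen or come from the annotation groups. The members and lists were chosen with earlier results of these data known, and 4 lists after their values were seen. limma 3.58.1 in R 4.3.3 tested population with genotype as a term and Benjamini-Hochberg adjustment. Its script was tested on simulated data. Each population and genotype had 1 library, so p-values rest only on the spread between these samples, pooled largely over genes. That spread may be technical. Alternatives changed the pseudocount, filters, scaling, gap and libraries. Fragments behind a value were estimated from steps in low FPKM values of genes with 1 transcript of at least 1500 bases. Promoters were read from RefSeq (GRCm38.p6). Python 3.11.15 with pandas 2.3.3 was used. Some genes are not reported here.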

Additional observations from a re-analysis of the deposited data

Results flagged for a closer look

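Of 266 list members, 13 outside joint and renamed rows pointed in opposite directions in the genotypes by at least 2 log2 units each. The share over all genes was not counted, so this number is a description only. With 1 library per group, the difference between genotypes was not tested. HSC minus CLP, in log2(FPKM + 1), was positive in the WT libraries and negative in the GRK6-/- libraries for all but 1 of the 13. Among megakaryocyte and platelet genes, Pf4 was 2.71 in WT and -5.23 in GRK6-/-, Itga2b was 3.77 and -3.18, and Gp9 was 4.38 and -2.14. Among granule genes, Camp was 3.37 and -6.11 and Fcnb was 4.75 and -3.45. Among cell cycle genes, E2f1 was 4.64 and -2.11 and Rbl2 was 3.65 and -4.0017. Abcg2, a drug efflux pump of HSC, was 3.91 and -2.27, Vcam1 was 3.99 and -4.33, Icam4 was 2.78 and -2.02, Cd72 was 2.18 and -2.31, and Zap70 was 2.25 and -2.01. Csf1r, the M-CSF receptor, was the exception, at -3.22 in WT and 3.65 in GRK6-/-.

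The Ly6a locus carried a value that the comparison does not use. Its row stood at 1998 FPKM in WT HSC under a joint name with Ly6a, and under the name 9030619P08Rik at 1792 in the other HSC library and at 1537 and 1099.55 in the WT and GRK6-/- CLP libraries.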

How the results depend on the processing

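The counts depended on the pseudocount and on how the rule was set. Against 484 HSC-high and 429 CLP-high genes, and 14 and 27 members of the lists, a pseudocount of 0.1 gave 770 and 548 genes, with 22 and 31 list members. A pseudocount of 5 gave 178 and 192 genes, with 6 and 18 list members. Requiring a row in all 4 libraries gave 253 and 260 genes, with 7 and 12 list members, and a gap of 2 gave 120 and 124, with 8 and 14. The WT libraries alone gave 2824 and 2479 genes, with 83 and 65 list members, and the GRK6-/- libraries alone gave 2786 and 2663, with 53 and 88. Leaving out 1 library at a time loosens the rule: HSC-high genes ranged from 1371 to 1520, CLP-high genes from 933 to 1736, and list members from 27 to 51 and from 38 to 72. Median-ratio rescaling kept 474 of the 484 and 428 of the 429 genes, and quantile normalization kept 428 and 406. The named genes were chosen by the separation rule, which fixes their direction under most settings, so their signs say nothing of stability. limma called 95 genes with a variance trend and 0 under the other alternatives. Those that leave out a library have population as the one term and assume that the lone library varies like the other population, so their 0 calls say nothing of stability. Over all these limma alternatives, 474 to 1511 genes had an unadjusted p under 0.05. The labels give no replicate numbers, and the genotype term already pairs HSC with CLP within each genotype.

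The depth of about 2710000 to 4430000 fragments sets a value of 1 fragment in a 2 kb transcript at 0.113 to 0.185 FPKM, so members of the HSC-high set with CLP values near 0.1 rest on 1 or 2 fragments there. This covers counting error only.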
